A study of Mus musculus with 60 samples.

Results

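Adult neurogenesis in the mouse hippocampus was examined through 9 genes that mark its dividing, committed and maturing cells: Mki67, Top2a, Eomes, Neurod1, Igfbpl1, Sox11, Dcx, Draxin and Dpysl3. They were taken by name from the table of 24508 genes. RNA came from frozen hippocampus of 30-week-old mice on a mixed CBA x C57BL/6 background, with 9 wild-type (WT) and 9 R6/1 libraries. R6/1 mice carry a transgene made of the first exon of human HTT, the Huntington's disease gene, with an expanded CAG repeat under its human promoter. The model therefore expresses a fragment of the protein in many tissues beside the intact mouse gene, and mouse Htt was measured at 17.6 ± 1.69 RPKM (SD, n = 9) in WT and 18.3 ± 1.72 RPKM (SD, n = 9) in R6/1. Lamin B1 chromatin immunoprecipitation from hippocampus of the same model gave 1 list of lamin-associated domains per genotype, which was used for the genes' positions.

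New granule neurons arise throughout life in the subgranular zone of the dentate gyrus. Radial glia-like stem cells give rise to dividing intermediate progenitors, these to neuroblasts, and the neuroblasts to immature neurons. The immature neurons extend an axon and dendrites before they become mature granule cells. Prox1 marks granule neurons from their immature stage on. Dividing cells and neuroblasts are rare in adult tissue, so whole-hippocampus RNA holds few molecules of their markers, and several of these genes are also expressed at a low level by mature neurons or glia.

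Of the 9 genes, 3 differed between the genotypes and 6 did not pass the test. Both genes of dividing cells were lower in R6/1, Mki67 by 2.77 times and Top2a by 5.85 times, with no overlap between the 9 WT and 9 R6/1 libraries. Dpysl3, a growth cone protein of extending axons, was 1.40 times higher in R6/1, again with no overlap. Dcx, Sox11, Igfbpl1, Neurod1, Eomes and Draxin had adjusted p-values from 0.109 to 0.863. These calls come from limma's voom fit to the read numbers behind the values, over genes averaging 5 or more reads per library. This fit was added after the data were seen. Top2a, with 158 reads over the 9 WT libraries and 30 over the 9 R6/1 libraries, passed its minimum only through WT. Benjamini-Hochberg adjustment ran over all 15800 genes tested, and a gene was called at an adjusted p under 0.05. In that fit 46.6% of all genes were called, 23.4% higher and 23.2% lower in R6/1, so 3 called genes of 9 lie below the background share. The limma fit to log2(RPKM + 0.5) kept genes averaging 0.5 RPKM or more and called 48.3% of 14446 genes, 24.8% higher and 23.5% lower. It held 4 of the 9 genes (Neurod1, Sox11, Dcx and Dpysl3) and called Dpysl3 alone. Scaling each library by its own total of reads in place of the authors' size factors moved the share of calls that were higher from 51.4% to 66.9%. Because the samples are bulk tissue, fewer cells of a type and less RNA per cell cannot be told apart in any of these values.

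**Figure D1:**
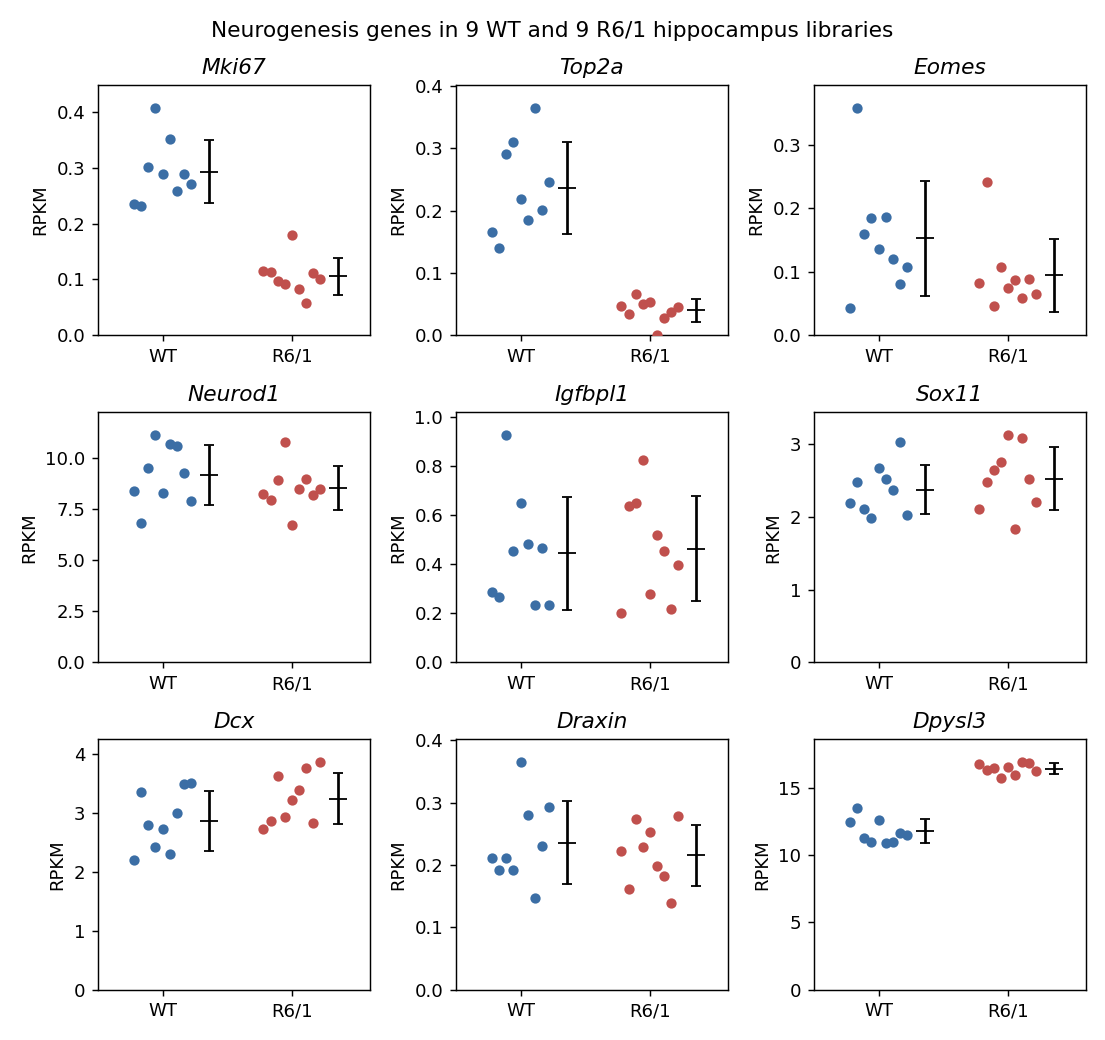
Normalised expression (RPKM, linear axes from 0) of the 9 genes in each of 9 WT (blue) and 9 R6/1 (red) libraries, with mean and SD beside each group. The R6/1 points of Mki67 and Top2a all lie below the WT points, those of Dpysl3 all lie above, and in the other 6 panels the groups overlap.

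The libraries held 12299434 to 16457022 reads on genes in WT and 13260311 to 16736544 in R6/1. Read numbers are whole multiples recovered from the deposited values, and 99.8% to 99.9% of values came out within 0.05 of a whole read. One read was therefore a sizeable step for the scarce genes. Fold changes below are on the log2 scale of R6/1 against WT, those from limma on log2(RPKM + 0.5), which understates the change of genes near or under 1 RPKM, and levels are in RPKM, which are per gene length and so can be compared between genes.

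In WT hippocampus the 9 genes spanned a wide range of levels. Dpysl3 was highest at 11.8 ± 0.898 RPKM (SD, n = 9), followed by Neurod1, Dcx, Sox11, Igfbpl1, Mki67, Top2a, Draxin and Eomes, the last at 0.153 ± 0.0903 RPKM (SD, n = 9). The WT ranges of Dpysl3 and Neurod1 overlapped, as did those of Dcx and Sox11. Likewise each neighbouring pair from Igfbpl1 down to Eomes overlapped, while the steps from Neurod1 to Dcx and from Sox11 to Igfbpl1 showed no overlap.

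Mki67 encodes the nuclear antigen Ki-67, present in cycling cells and absent from resting ones, and Top2a encodes the DNA topoisomerase that untangles chromosomes in the late phases of the cycle. Both are known targets of the complex that holds cell cycle genes silent in resting cells and of its activating counterpart, which reach promoters through a cell cycle homology region (CHR) and through CCAAT boxes bound by NF-Y. The 250 bases before their starts are shown because these 2 genes carry the main difference of the set, beside those of Sox11 and Dcx, whose RNA did not pass the test. They are RefSeq sequences of the build GRCm38.p6, each read 5′ to 3′ on the gene's own strand, which is the minus strand for all of them. Capitals mark TTTGAA (the CHR) and CCAAT in either orientation, so TTCAAA and ATTGG are capitals too.
Mki67, chr7:135716380-135716629: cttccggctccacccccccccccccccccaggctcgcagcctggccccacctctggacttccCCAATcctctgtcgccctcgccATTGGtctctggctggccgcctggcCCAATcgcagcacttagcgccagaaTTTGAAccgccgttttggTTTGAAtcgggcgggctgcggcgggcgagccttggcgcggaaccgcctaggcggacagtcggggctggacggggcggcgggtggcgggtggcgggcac
Top2a, chr11:99024190-99024439: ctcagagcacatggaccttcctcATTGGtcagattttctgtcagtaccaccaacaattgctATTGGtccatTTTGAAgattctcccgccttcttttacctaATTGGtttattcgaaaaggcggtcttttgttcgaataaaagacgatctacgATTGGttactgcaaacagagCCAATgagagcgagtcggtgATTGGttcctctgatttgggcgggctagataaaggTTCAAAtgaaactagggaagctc
Sox11, chr12:27342719-27342968: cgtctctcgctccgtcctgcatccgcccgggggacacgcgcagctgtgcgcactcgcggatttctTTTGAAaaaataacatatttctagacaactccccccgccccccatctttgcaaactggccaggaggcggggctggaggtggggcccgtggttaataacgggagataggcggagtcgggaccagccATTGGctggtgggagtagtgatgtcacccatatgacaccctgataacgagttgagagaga
Dcx, chrX:143933220-143933469: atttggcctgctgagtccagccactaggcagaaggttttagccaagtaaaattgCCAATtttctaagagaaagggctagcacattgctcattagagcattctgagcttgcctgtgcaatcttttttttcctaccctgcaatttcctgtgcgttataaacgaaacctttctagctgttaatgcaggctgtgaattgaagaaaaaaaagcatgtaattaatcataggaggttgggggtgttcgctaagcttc

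The Mki67 window held 2 CHR and 3 CCAAT matches, and that of Top2a held 2 CHR and 6 CCAAT matches. Sox11 held 1 of each, the Dcx window shown held 1 CCAAT match and no CHR, and Eomes held 2 CCAAT matches and no CHR. No match to either motif lay in the windows of Neurod1 and Draxin. Both strands were searched, and no matches overlap in the windows shown. Among all 32851 promoter windows of the same length, 16.0% held TTTGAA, 33.8% held CCAAT and 5.55% held both. Promoters were found for 7 of the 9 genes, and not for Igfbpl1 and Dpysl3. A match describes letters in a window and shows no binding.

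Mki67 in WT ran from 0.231 RPKM through a median of 0.289 to 0.407, on 30 to 66 reads per library. In R6/1 it ran from 0.0577 through a median of 0.102 to 0.179 RPKM, on 8 to 26 reads. Every R6/1 library thus lay below the lowest WT library. Summed over 9 libraries, Mki67 had 378 reads in WT and 150 in R6/1. Its log2 fold change was -1.48 (SE 0.166, voom adjusted p = 2.72e-07), and over the refitted alternatives the adjusted p ran from 1.14e-07 to 1.46e-05. The gene lies at chr7:142881471-142908062 on the minus strand (NCBIM37), with 14 exons in its longest annotated transcript.

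Top2a was scarcer. WT libraries held 0.140 to 0.365 RPKM with a median of 0.218, on 11 to 30 reads. R6/1 libraries held 0 to 0.0656 RPKM with a median of 0.0461, on 0 to 6 reads. The groups did not overlap, and the R6/1 library with no read, replicate 6, still allows up to 0.0372 RPKM (3 reads, counting error only). The sums were 158 reads in WT against 30 in R6/1, the log2 fold change was -2.54 (SE 0.339), and the voom adjusted p was 2.85e-06. Refitted alternatives gave adjusted p-values from 3.91e-07 to 1.24e-05. In the authors' deposited table the log2 fold changes were smaller, -1.28 for Mki67 and -1.70 for Top2a, with adjusted p-values of 1.04e-14 and 6.72e-14; that table called the same 3 genes as voom, against 40.4% of its genes called, 20.4% lower in R6/1. Top2a lies at chr11:98854257-98885503 (NCBIM37, minus strand, 36 exons), and 2 small RNA genes, SNORA32 and SNORA42, lie inside it.

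Groups without any overlap were found for 11.3% of the 15800 genes, 5.27% higher and 6.02% lower in R6/1, against 3 of the 9 genes here. Mki67 and Top2a were also compared with Dcx and Sox11 inside each library. The log2 difference of Mki67 minus Dcx, on the log2 CPM scale, was -3.14 ± 0.430 (SD, n = 9) in WT and -4.80 ± 0.531 (SD, n = 9) in R6/1. That is a shift of -1.67 with no overlap (two-sided exact permutation test, p = 4.11e-05, the smallest that 9 against 9 libraries allow). Mki67 minus Sox11 shifted by -1.56, Top2a minus Dcx by -2.74 and Top2a minus Sox11 by -2.63, each without overlap and each with an exact p of 4.11e-05. Top2a also shifted against Mki67, by -1.07 (exact permutation p = 0.000699), though here the groups overlapped. These belong to 6 such differences that were chosen after the values were seen, and the sixth, Dpysl3 minus Dcx, shifted by 0.30 (exact permutation p = 0.0151). Mki67 and Top2a already separated the genotypes, while Dcx and Sox11 were not called. The shifts of Mki67 and Top2a against Dcx and Sox11 were thus largely given in advance and add no separate evidence.

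**Figure D2:**
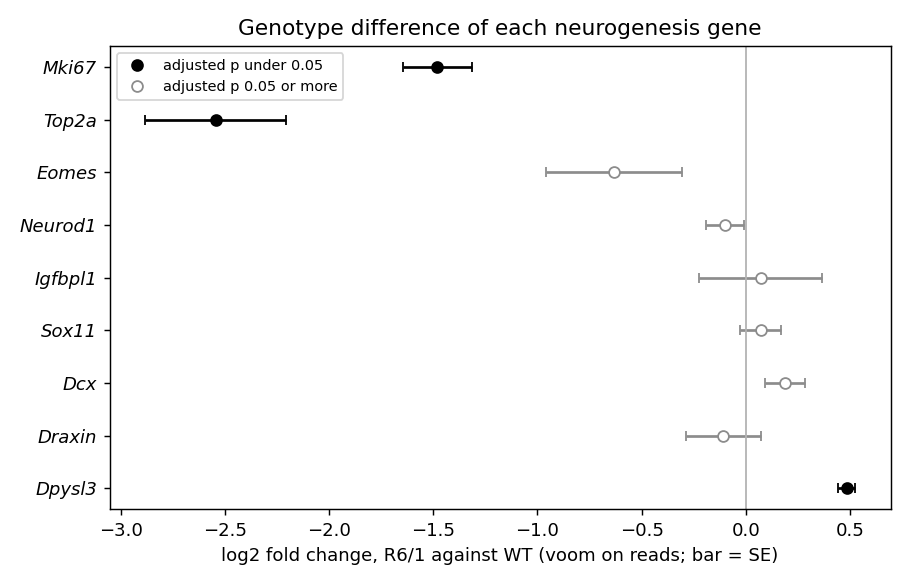
Log2 fold change of R6/1 against WT for each of the 9 genes, from the voom fit to read numbers over 18 libraries, with bars of 1 SE. Filled points have an adjusted p under 0.05 over all genes tested: Top2a at -2.54, Mki67 at -1.48 and Dpysl3 at 0.48.

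Other genes of the cell cycle did not move as 1 group. Of 40 listed proliferation genes, 24 averaged 0.5 RPKM or more, and of these 8 were higher, 3 were lower and 13 were not called. Among all genes tested in that fit, 24.8% were higher and 23.5% lower. Foxm1 (0.454 RPKM in WT, 0.692 in R6/1) and Cdc20 (0.391 and 0.629) passed this filter only through R6/1. Plk1 (0.624 and 0.417) passed it only through WT. Ccna2 and Rrm2, averaging 0.474 and 0.445 RPKM, fell just under it. The median log2 fold change of those 24 was 0.08, beside 0.00 over all genes tested. With no filter on low values all 40 entered the fit, 10 were higher and 9 lower, beside 35.2% of all genes called. On the log2(RPKM + 0.5) scale the largest change was that of Tpx2, a spindle assembly factor that activates Aurora A. Tpx2 rose from 0.629 ± 0.151 to 2.26 ± 0.238 RPKM (SD, n = 9 each), 3.59 times. Its log2 change was 1.30 on the log2(RPKM + 0.5) scale (SE 0.081, limma adjusted p = 1.44e-10) and 1.87 by voom. Pcna, the sliding clamp of DNA replication, rose by 0.37 and Rrm1, the large subunit of ribonucleotide reductase, by 0.36. The replication licensing factor Mcm6 fell by 0.40, the spindle protein Nusap1 by 0.29 and the mitotic kinase Plk1 by 0.29. In the voom fit, lower calls also included Mybl2 at -1.34, the mitotic cyclin Ccnb2 at -1.23, Rrm2, the cycle-dependent small subunit of ribonucleotide reductase, at -1.01, and cyclin A2 (Ccna2) at -0.89. Higher calls there also included the anaphase activator Cdc20 at 0.68, the kinetochore motor Cenpe at 0.65, the transcription factor Foxm1 at 0.60 and the spindle motor Kif11 at 0.53. Mybl2 (100 reads over the WT libraries, 42 over the R6/1 libraries) and Ccnb2 (65 and 38) passed the 5-read minimum of that fit only through WT. Mki67 and Top2a lay below the 36 listed genes that this fit held, but 4 scarcer genes, Pbk among them, were outside it. Mki67 at -1.48 (SE 0.166) lay close to Mybl2 at -1.34 (SE 0.250). Pbk, a mitotic kinase, had 49 reads over the WT libraries and 6 over the R6/1 libraries, 0.231 ± 0.140 against 0.0255 ± 0.0265 RPKM (SD, n = 9 each). With no filter Pbk and Cdk1 were also called lower. There, on the log2(RPKM + 0.5) scale, Pbk (-0.45) lay below Top2a (-0.44), and Ccna2 (-0.43) and Rrm2 (-0.42) below Mki67 (-0.39). That scale understates the change of scarcer genes more. By the means, Mki67 fell 2.77 times, close to Mybl2 (2.67 times) and more than Ccna2 (1.90 times) and Rrm2 (1.86 times). Pbk fell 9.05 times and Top2a 5.85 times. Promoters were found for 33 of the 40 genes, and 9 held the CHR, all of them together with CCAAT, while 27 held CCAAT. By the calls with no filter, the CHR was in 2 of 7 lower genes, 2 of 8 higher genes and 5 of 18 not called. CCAAT was in 5 of the 7 lower genes, 7 of the 8 higher genes and 15 of the 18 not called.

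**Figure D3:**
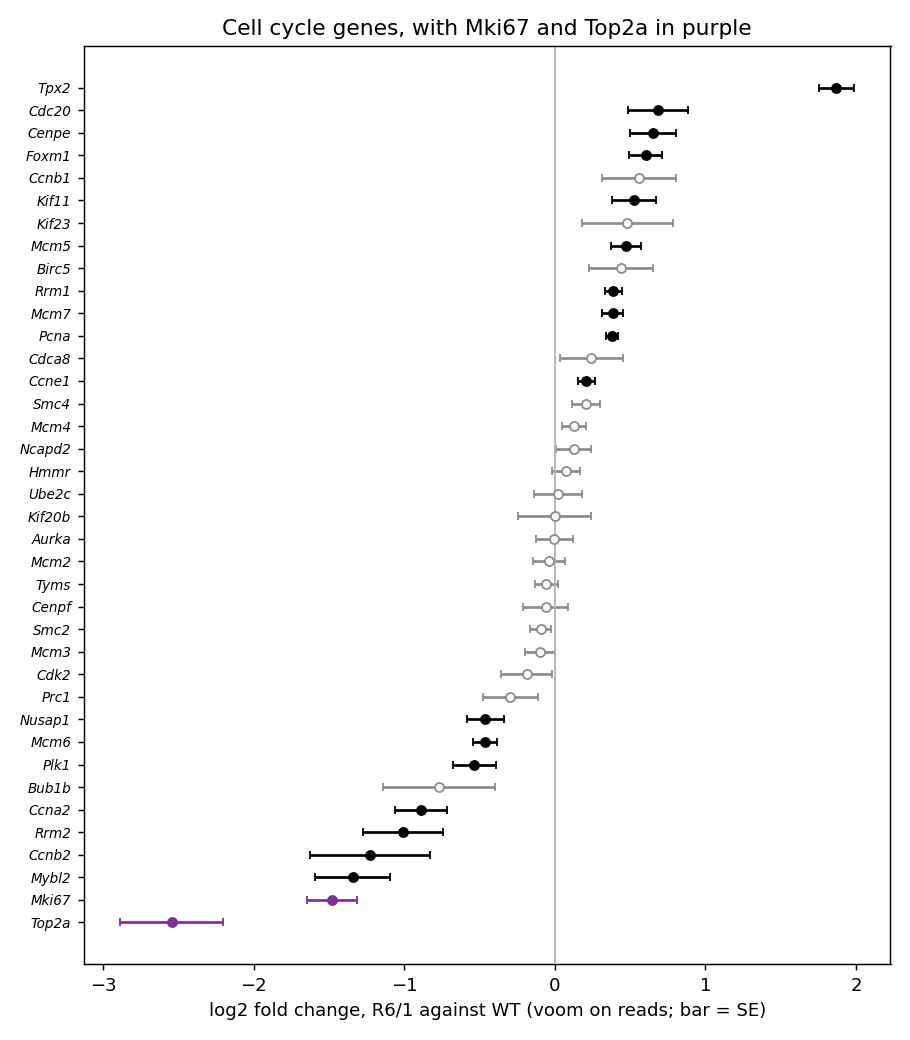
Log2 fold change of R6/1 against WT, with bars of 1 SE, for the 36 listed proliferation genes averaging 5 or more reads and for Mki67 and Top2a (purple), from the voom fit. Filled points were called at an adjusted p under 0.05; 10 listed genes lie on the higher side, led by Tpx2 at 1.87, and 7 on the lower side.

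Eomes (Tbr2) is the transcription factor that defines intermediate progenitors. It was the scarcest of the 9 genes, with 0.0423 to 0.359 RPKM and a median of 0.136 in WT, against 0.0461 to 0.242 RPKM and a median of 0.0819 in R6/1. The libraries held 2 to 20 reads of it in WT and 3 to 15 in R6/1, 74 and 50 in all, and the groups overlapped. In 8 of 9 R6/1 libraries the level was under the WT median. The log2 fold change was -0.63 (SE 0.327, voom adjusted p = 0.120), which did not pass. Without R6/1 replicate 2, the library with the most Eomes in its group, the adjusted p was 0.0399, without WT replicate 1 it was 0.0323, and over all alternatives it ran from 0.0323 to 0.235. On simulated data, 176 of 15796 genes were changed, each averaging 5 to 30 reads per library. The same fit recovered 20.5% of genes changed by 0.6 on the log2 scale and 73.9% of those changed by 1.0. In the real data 46.6% of genes were called, which makes the adjusted threshold easier to pass, and Eomes averaged 6.89 reads. The simulated shares therefore do not tell how detectable the fitted change of Eomes was here. Eomes lies at chr9:118387330-118395250 on the plus strand (NCBIM37).

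Among 8 other intermediate progenitor genes, 5 passed the filter and 1 was called, beside 48.3% of all genes tested. Gadd45g, a stress and cell cycle arrest protein that is also expressed in committing progenitors, averaged 9.61 ± 1.78 RPKM over WT libraries and 7.97 ± 0.928 RPKM over R6/1 libraries (SD, n = 9 each). Its log2 change was -0.24 (SE 0.095, limma adjusted p = 0.0413), a call lost in 17 of 33 alternatives, 11 of them with 1 library left out. Insm1, a zinc finger factor of delaminating progenitors, stood at 0.06, the Notch pathway gene Hes6 at -0.03 and Ccnd2, the cyclin of neurogenic divisions, at -0.16. None of the 3 was called.

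Neurod1 is a basic helix-loop-helix factor needed for newborn granule neurons to mature and survive, and granule cells keep expressing it. WT libraries ran from 6.81 through a median of 9.29 to 11.1 RPKM. R6/1 libraries ran from 6.71 through 8.47 to 10.8 RPKM, and the groups overlapped over most of their ranges. In 8 of 9 R6/1 libraries the level was below the WT median. The log2 change was -0.09 (SE 0.087, limma adjusted p = 0.399), and adjusted p-values ran from 0.153 to 0.842 over the alternatives. Reads at Neurod1 (chr2:79292678-79296908, minus strand, 3 exons, NCBIM37) may be shared with Cerkl on the same strand and Gm17325 on the other, as the handling of strand and overlaps in counting is not given in the sources used here.

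Igfbpl1, an insulin-like growth factor binding protein-like secreted protein found in neuroblasts, was spread widely in both groups. It ran from 0.233 through 0.456 to 0.927 RPKM in WT and from 0.201 through 0.453 to 0.825 RPKM in R6/1. Library-to-library variation was thus several times larger than the distance between the group means of 0.445 ± 0.229 and 0.464 ± 0.214 RPKM (SD, n = 9 each). The fitted log2 change was 0.07 (SE 0.296, voom adjusted p = 0.863). Its SE leaves changes of either sign possible, and the sign turned in 7 of 25 alternatives. Igfbpl1 lies at chr4:45822340-45839795 (NCBIM37, minus strand).

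Sox11, an HMG-box factor that drives neuronal genes in newborn neurons and is switched off as they mature, ran from 1.99 through 2.37 to 3.03 RPKM in WT. In R6/1 it ran from 1.83 through 2.52 to 3.13 RPKM, spanning the whole WT range. The log2 change of 0.07 (SE 0.088, limma adjusted p = 0.547) stayed under the spread between libraries. Adjusted p-values over the alternatives were 0.246 to 0.771. This single-exon gene lies at chr12:28025562-28027574 (NCBIM37, minus strand).

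Dcx encodes doublecortin, the microtubule-binding protein most used to count adult-born neurons. WT libraries ran from 2.19 through 2.78 to 3.51 RPKM and R6/1 libraries from 2.72 through 3.21 to 3.86 RPKM. The groups overlapped, with 8 of 9 R6/1 libraries above the WT median and 3 above the highest WT library. The log2 change was 0.16 (SE 0.089), and the limma adjusted p of 0.144 missed the threshold. Quantile normalization brought it to 0.0410, and over all alternatives it ran from 0.0410 to 0.253. Dcx had 255 to 460 reads per library in WT and 392 to 587 in R6/1.

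Draxin, a secreted repellent for growing axons, had 12 to 30 reads per library in WT and 11 to 25 in R6/1. Its levels ran from 0.147 through 0.212 to 0.365 RPKM in WT and from 0.140 through 0.222 to 0.278 RPKM in R6/1. Both groups covered much the same range. The log2 change was -0.11 (SE 0.181, voom adjusted p = 0.658). Draxin is annotated as 2610109H07Rik at chr4:147472546-147504807 (NCBIM37, minus strand) and overlaps Mad2l2 on the other strand, so some of its few reads may belong to that gene.

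Dpysl3, also called Crmp4, encodes a collapsin response mediator protein that bundles actin and binds tubulin in growth cones. WT libraries ran from 10.9 through 11.5 to 13.5 RPKM. R6/1 libraries ran from 15.7 through 16.5 to 16.9 RPKM, a narrower band that lay wholly above WT. The means were 11.8 ± 0.898 and 16.4 ± 0.411 RPKM (SD, n = 9 each), and the log2 change was 0.47 (SE 0.040, limma adjusted p = 1.12e-08). It was higher in 9 of 9 R6/1 libraries than in any WT library, and the adjusted p ran from 2.28e-09 to 1.92e-06 over the refitted alternatives and was 5.36e-29 in the authors' deposited table. Of genes averaging 0.5 RPKM or more, 11.9% had no overlap, 5.5% on the higher and 6.38% on the lower side. Dpysl3 lies at chr18:43480633-43597940 (NCBIM37, minus strand, 14 exons).

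The wider list of 23 immature neuron genes did not follow Dpysl3. Of the 22 that averaged 0.5 RPKM or more, 4 were higher, 10 lower and 8 not called, with a median log2 fold change of -0.14. Among all genes tested in that limma fit, 24.8% were higher and 23.5% lower. Gap43, the growth cone phosphoprotein, rose from 78.2 ± 10.8 to 105.7 ± 10.0 RPKM (SD, n = 9 each; log2 change 0.44, limma adjusted p = 6.73e-05). Dpysl5, a relative of Dpysl3, rose by 0.37 and the actin-sequestering Tmsb10 by 0.26. Neurod6, a factor of pyramidal and other excitatory neurons, fell from 88.7 ± 9.13 to 29.1 ± 2.85 RPKM (SD, n = 9 each), a log2 change of -1.59 (limma adjusted p = 2.08e-13). St8sia2, the enzyme that makes polysialic acid on the cell surface of young neurons, fell from 0.993 ± 0.235 to 0.459 ± 0.110 RPKM (SD, n = 9 each), 2.16 times, by 1.12 in log2 by voom and by 0.63 on the log2(RPKM + 0.5) scale. It passed the filter of 0.5 RPKM only through WT. Calretinin (Calb2) fell by 0.55. Many genes of this list are also expressed by mature neurons of the hippocampus, Neurod6, Gap43 and Calb2 among them.

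Upstream of the dividing cells, 8 of 19 stem cell genes were lower in the limma fit, beside 23.5% of all genes tested. The other 11 were not called (voom gave the same counts), and the median log2 fold change of the list was -0.15. The largest changes of the list were those of Fabp7, a lipid-binding protein of radial glia, at -1.26, Hopx, a marker of quiescent stem cells, at -0.95, and nestin (Nes) at -0.62. Astrocytes express many of these genes too. In a list of 7 astrocyte genes, 6 were lower and 1 higher (Gjb6, 0.35), and their summed level ran from 720.3 to 957.9 RPKM in WT and from 481.6 to 712.4 RPKM in R6/1, with none of the 7 at 0. Astrocyte genes thus moved with the stem cell list, and their part in that result was not tested.

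Downstream, all 11 mature granule neuron genes were lower, beside 23.5% of all genes tested. Their median was -0.97, with the largest changes in Dsp (-2.36), Lct (-2.12) and C1ql2 (-2.08). Earlier results of these data were known when that list was made. Prox1, the granule neuron transcription factor, averaged 14.8 ± 3.32 RPKM over WT libraries and 10.5 ± 1.04 RPKM over R6/1 libraries (SD, n = 9 each; log2 change -0.46, limma adjusted p = 0.00162). Relative to Prox1 in the same library, the 4 genes above the filter were all higher in R6/1. The log2 difference to Prox1 shifted by 0.62 for Dcx (limma adjusted p = 0.00111, exact permutation p = 0.00358) and by 0.53 for Sox11 (0.00377 and 0.00502). For Neurod1 it shifted by 0.36 (limma adjusted p = 0.00579, exact permutation p = 0.000123), and for Dpysl3 by 0.93 (2.61e-06 and 8.23e-05). Since Prox1 itself was lower, 70.4% of all genes tested were higher relative to it, and the 4 shifts are not particular to these genes.

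**Figure D4:**
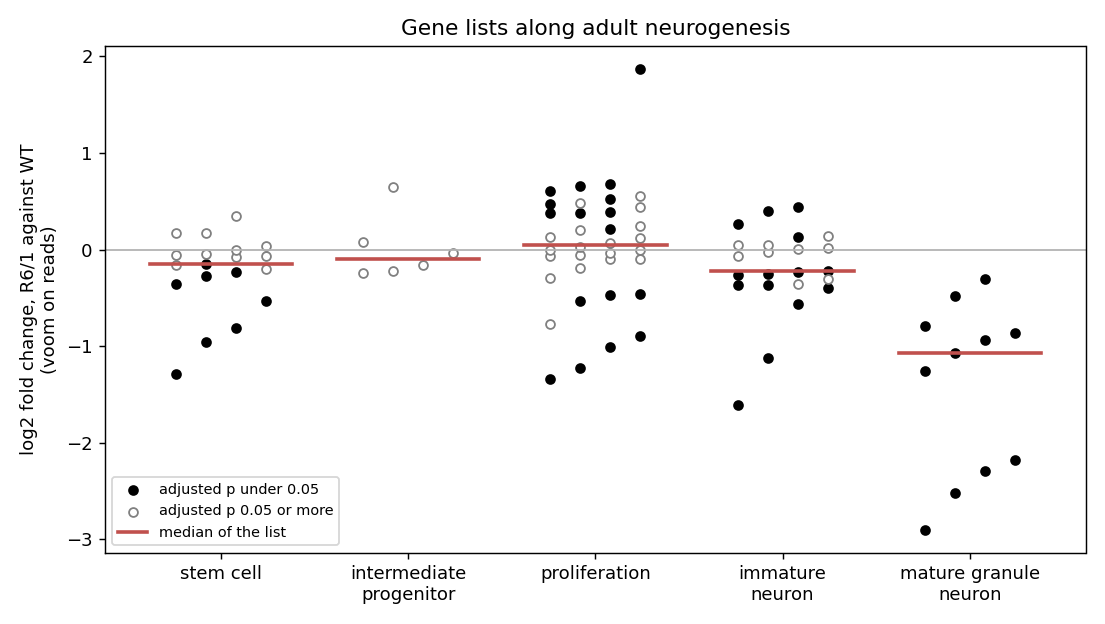
Log2 fold change of R6/1 against WT from the voom fit for each listed gene averaging 5 or more reads, in 5 lists along adult neurogenesis. Filled points had an adjusted p under 0.05, red lines are list medians, and all 11 mature granule neuron genes lie below 0 while the proliferation list spreads to both sides.

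Genes for signals of the neurogenic niche were more often lower than higher. Of 29 listed, 26 passed the filter, 13 were lower, 3 higher and 10 not called, with a median of -0.16, beside 23.5% lower and 24.8% higher among all genes tested. The chemokine Cxcl12, which guides new granule neurons, fell from 12.1 ± 2.23 to 6.01 ± 1.35 RPKM, the neurotrophin Bdnf from 6.37 ± 0.946 to 3.21 ± 0.391 and the BMP antagonist chordin (Chrd) from 17.0 ± 3.45 to 8.92 ± 0.920 (SD, n = 9 each). The Wnt antagonist Frzb rose by 0.38, Wnt3 by 0.35 and Rbpj, the nuclear effector of Notch, by 0.09.

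Other dividing or neuroblast-like cells that the tissue could hold also express Mki67, Top2a or Sox11. Of 9 oligodendrocyte precursor genes, 3 were lower (C1ql1, Gpr17 and Neu4) and 6 not called in the limma fit, and 4 were lower by voom. Of all genes tested, 23.5% were lower in the limma fit and 23.2% by voom. The sum of the 9 precursor genes was 95.0 to 115.3 RPKM in WT and 81.9 to 124.0 RPKM in R6/1. Of 9 microglia genes, 5 were lower (4 by voom, 3 with no filter; 23.5% of all genes tested were lower), led by Itgam at -0.66, with sums of 148.9 to 216.9 RPKM in WT and 117.8 to 187.3 RPKM in R6/1. No marker of either list was at 0 in all libraries, and the part of these cells in the Mki67 and Top2a result was not tested. Endothelial genes gave 1 lower call of 7 (Kdr, -0.30), a call lost in 21 of 33 alternatives, 14 of them with 1 library left out. Genes of neuroblasts of the subventricular zone and olfactory bulb split: Gsx2, Dlx2 and Sp9 rose, by 3.36, 1.49 and 0.65 in log2 by voom and by 1.49, 1.27 and 0.52 on the log2(RPKM + 0.5) scale, while Dlx6 fell by 0.30 and Etv1 by 0.22. Gsx2 averaged 0.125 ± 0.0826 RPKM over WT libraries and 1.28 ± 0.405 RPKM over R6/1 libraries (SD, n = 9 each), so it passed the filter only through R6/1. The summed level of the list was 36.6 to 44.7 RPKM in WT and 37.2 to 47.6 RPKM in R6/1. In that neuroblast list 8 of 10 genes passed the filter, with 3 higher, 2 lower and 3 not called. Of 6 Cajal-Retzius genes, 4 passed the filter and 2 fell, Ndnf by 0.62 and Reln by 0.41. Beside the endothelial, neuroblast and Cajal-Retzius counts, 24.8% of all genes tested were higher and 23.5% lower in the limma fit. Choroid plexus genes, which enter with tissue cut at dissection, summed to 26.1 to 1084 RPKM in WT and 39.4 to 1752 RPKM in R6/1. With their level as a covariate the log2 changes of Mki67, Top2a and Dpysl3 were -1.49, -2.53 and 0.47, all still called.

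Within a genotype the 9 genes did not rise and fall together across mice to an extent that passed correction. All 36 pairs were examined in each genotype over 9 libraries, 72 relations in all, with exact permutation p-values. After Benjamini-Hochberg adjustment 0 were under 0.05, the lowest being 0.0952, and 5 had an unadjusted Pearson p and 3 an unadjusted Spearman p under 0.05. The largest Pearson value was that of Neurod1 with Dpysl3 in WT, with Pearson r = -0.89 (exact permutation p = 0.00132) and Spearman rho = -0.85 (exact permutation p = 0.00607). It was r = -0.77 without the 2 libraries farthest from the median of Neurod1, and r = -0.46 in R6/1. Neurod1 and Mki67 had r = 0.74 in WT and r = -0.74 in R6/1 (exact permutation p = 0.0222 and 0.0357, adjusted p = 0.514 for both). Its rho of -0.87 in R6/1 was the largest Spearman value (exact permutation p = 0.00451, adjusted p = 0.219), and the difference between the genotypes was not tested. Mki67 and Top2a had r = 0.37 in WT and 0.42 in R6/1, and Dcx and Sox11 had r = 0.29 and 0.11. In R6/1 Top2a had 0 to 6 reads per library and Mki67 8 to 26. Counts this low limit the r that scarce genes can show, so a shared pattern among them could be missed.

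Genes elsewhere in the table with the most similar pattern were found from deviations from the genotype means over 18 libraries, as a description. For Dcx these included Npas2 (r = 0.80) and Lyrm9 (0.75), and for Sox11 they were Ednra (0.73), Alms1-ps2 (0.71) and Tigd3 (0.69). Neurod1 was most like Plekha2 (r = 0.90), Rab40b (0.88) and Iqgap2 (0.88), and Dpysl3 most like Cd44 (0.87), Nwd2 (0.87) and Adcyap1 (0.82). By genotype, Cd44 (-0.40) and Nwd2 (-0.55) were lower in R6/1 and Adcyap1 was not called, while Dpysl3 was higher. Plekha2 (-0.69), Rab40b (-0.80) and Iqgap2 (-0.62) were lower, while Neurod1 was not called. Each r was picked as among the highest over all genes tested, and whether chance gives such values was not tested. No other one of the 9 genes was among these nearest patterns, and all points share library and depth.

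The lamin B1 lists held 145 domains in WT and 166 in R6/1, with 1 list per genotype and so no replicate check. The starts of 2 of the 9 genes, Dcx and Neurod1, lay in a WT domain, and the start of 0 of the 9 lay in an R6/1 domain. Among 15185 genes averaging 5 or more reads and with 1 annotated position, 13.2% started in a WT domain, 8.29% in an R6/1 domain and 5.33% in a WT domain only. Dcx (chrX:140290385-140367854, minus strand, 8 exons, NCBIM37) lay inside a WT domain of 4.81 Mb, chrX:139416001-144226000, at 0.952 Mb from its end. The nearest R6/1 domain was 3.58 Mb away. Neurod1 lay inside a WT domain of 13.0 Mb, chr2:77182001-90169000, with the nearest R6/1 domain 1.25 Mb away. The RNA of neither gene passed the test, and the 3 genes whose RNA did, Mki67, Top2a and Dpysl3, lay 26.8 Mb, 5.46 Mb and 3.98 Mb from the nearest WT domain.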

How the data were processed

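RNA from 9 WT and 9 R6/1 hippocampi was sequenced with a stranded mRNA kit, per the labels' protocols. The deposited RPKM are the authors' reads per kilobase, scaled by size factors. TopHat, DESeq2 and the build mm9 are named for RNA and Bowtie for lamin B1 in the submitters' processing notes, while versions, the counter and its annotation are not given in the sources used here. The deposited DESeq2 table gives the authors' mean normalised count (a signal, not a read total), log2 fold change and adjusted p-value for each gene. That table also holds the authors' test statistic, and the deposited domain lists hold the authors' domain score; neither score was used here.

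Reads per gene were recovered from the step between low RPKM values (12299434 to 16736544 per library, within 0.05 of whole reads for at least 99.8% of values). The main test was limma 3.58.1 (R 4.3.3; lmFit, eBayes with trend) on log2(RPKM + 0.5), for the 14446 of 24508 genes averaging 0.5 RPKM or more, with Benjamini-Hochberg adjustment. Of the 9 genes, 5 were under that minimum, so limma's voom on recovered reads (an average of 5 or more) was added after the data were seen. On simulated data the limma fit recovered 62.0%, 90.0%, 98.0% and 100.0% of genes changed by 0.3, 0.6, 1.0 and 2.0 (log2). Only 199 of 14450 genes were changed there, against 48.3% of genes called in the data, so these shares are not the power in the data. Genes were grouped by label alone, and the labels state 9 independent biological replicates. Replicate numbers did not pair samples: same-numbered libraries had correlations of -0.05 to 0.24. Named genes were all 9, up to 3 called genes per direction and list with the largest change, the 3 nearest patterns of each gene above the filter (1 is not reported here), and Prox1; Insm1, Hes6, Ccnd2 and the low-read cell cycle genes were named after their values were seen. The 9 genes and all lists were chosen with earlier results of these data known. Positions are from GENCODE on NCBIM37 (mm9), promoters from RefSeq on GRCm38.p6. Alternatives covered pseudocount, filter, scaling, voom, library weights, the deposited table, a replicate block, covariates and each library left out.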

Additional observations from a re-analysis of the deposited data

Results flagged for a closer look

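In 18 groups of 9 libraries (9 genes in 2 genotypes), 3 held a library past Dixon's 95% limit, where chance gives about 1 in 20. The measure was the gap to the nearest neighbour divided by the range of the group. In the order below it was 0.545, 0.689 and 0.530. Eomes in WT replicate 2 was 0.359 RPKM on 20 reads, beside 0.186 in the next library. Eomes in R6/1 replicate 2 was 0.242 RPKM on 15 reads, beside 0.107 in the next. Mki67 in R6/1 replicate 5 was 0.179 RPKM on 26 reads, beside 0.115 in the next, and still below the lowest WT library.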

How the results depend on the processing

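Under the limma fit 1 of the 9 genes was called. The count was 3 with no filter, with voom at a mean of at least 10 reads, in the authors' deposited table and with voom at 5 reads, and 2 with quantile normalization, which added Dcx; it was 1 with each library left out. Over all genes there were 6980 calls, and 6665 to 7175 with a library left out. Mki67, Top2a and Dpysl3 kept direction and call in all 25, 25 and 33 alternatives. Igfbpl1, never called, turned sign with the choroid plexus covariate (-0.0048) and ran from -0.0431 to 0.21 with a library left out. The list of proliferation genes had 11 calls, 19 with no filter, 18 in the authors' deposited table, 17 with voom at 5 reads and 7 at a mean of at least 1 RPKM. Intermediate progenitor calls went from 1 to 0 in several settings, microglia calls ran from 3 to 6 and endothelial calls from 0 to 3 with a library left out. With a replicate block 7133 genes were called, and Eomes passed (adjusted p = 0.0371, with 0.0323 to 0.235 over its alternatives); of 9 numbers, only 1 and 3 correlated best with their own number, so the block is no sign of pairing. Counts of 0 to 34 reads per library limit what can be said of Eomes, Top2a, Igfbpl1 and Draxin.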
